A study of Mus musculus with 8 samples.

Results

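Rdh10 and Adhfe1 are both dehydrogenase genes of mouse chromosome 1. They were chosen by gene identity and not by their measured values, although earlier results of these data were known. They account for 2 of the 39667 loci quantified in each testis, as XLOC_000046 (Rdh10) and XLOC_000020 (Adhfe1). The files identify a locus only by the number the assembly gave it. A gene name was taken from the same number in a supplementary table of the study, which was done only up to locus number 56 and named 37 loci. Both genes passed the filter on low values, as members of the 18726 loci that were tested. The RNA came from whole testes of C57BL/6 mice at 6 weeks of age, of which 3 were wild type (WT) and 3 carried Stra8-Cre with Upf2 fl/Δ (Stra8-KO). UPF2 is a core factor of nonsense-mediated decay (NMD), the pathway that degrades transcripts with a premature stop codon. According to the paper, Stra8-Cre is expressed in the male germ line from the first days after birth, and Upf2 is deleted in meiotic and haploid germ cells. The somatic cells of a Stra8-KO testis therefore keep the floxed Upf2 allele beside the Δ allele. The sources describe the WT mice no further. The values carry no read numbers, and reads per locus were not analysed here.

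RDH10 is a membrane-bound retinol dehydrogenase that oxidises retinol to retinaldehyde, the first of the pair of steps by which cells make retinoic acid. In the testis, retinoic acid drives the differentiation of spermatogonia and the entry into meiosis, and it induces Stra8, the gene whose promoter drives the Cre used here. ADHFE1 is an iron-dependent transhydrogenase of the mitochondrion. It oxidises gamma-hydroxybutyrate to succinic semialdehyde while reducing 2-oxoglutarate to D-2-hydroxyglutarate.

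On NCBIM37 (mm9) both genes lie on the plus strand of chromosome 1. Adhfe1 covers 9538029 to 9568051 and Rdh10 covers 16095855 to 16123815. The annotation of Adhfe1 holds 1 coding transcript and a pair of others that reach a stop codon early when read from the same start codon. Adhfe1-001 has 14 exons and 3239 bases, with 465 codons before a TAA in exon 14. Adhfe1-002, which the annotation classes as a nonsense-mediated decay transcript, skips the 41-base exon at 9541798 to 9541838. Adhfe1-003, classed as a processed transcript, has in the place of that exon an 87-base exon at 9540642 to 9540728. The joins that follow exon 2 show where the transcripts part. Capitals mark the first bases of the exon that follows exon 2, and each coordinate range gives the outer ends of a spliced stretch on the plus strand of NCBIM37.
Adhfe1-001 at chr1:9540014-9541809: cttactcccaagCCCCTGGACCTT
Adhfe1-002 at chr1:9540014-9543015: cttactcccaagATGGCTGTCTCA
Adhfe1-003 at chr1:9540014-9540653: cttactcccaagACTCTGAGGTCC

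The stop codons that these joins lead to are shown because their place relative to the last exon junction is the best known feature by which NMD picks its targets. Capitals mark the stop codon, and the range for Adhfe1-002 and Adhfe1-003 again spans an intron.
Adhfe1-001 at chr1:9566329-9566355: tttgaagcatccatgaaactgtacTAA
Adhfe1-002 at chr1:9540019-9543023: tcccaagatggctgtctcaaatatTAG
Adhfe1-003 at chr1:9540722-9543023: gaaagagatggctgtctcaaatatTAG
Rdh10-001 at chr1:16121472-16121498: aacaatgaagcaaaaaatggaatcTAA
Read from the start codon of Adhfe1-001, Adhfe1-002 and Adhfe1-003 both run into the same TAG at 9543021 to 9543023. In neither transcript is this TAG an annotated stop codon, so it is a reading of the sequence only. It comes after 38 codons in Adhfe1-002, with 10 exon junctions after it and the last of them 1156 bases away. In Adhfe1-003 it comes after 67 codons, with 2 junctions after it and the last of them 189 bases away. The stop codon of Rdh10-001 (6 exons, 3587 bases, 341 codons) lies in the last exon, as does that of Adhfe1-001, so neither has a junction after it. The paper found no global rise of transcripts with premature stop codons in Stra8-KO testes. It proposes instead that UPF2 removes transcripts with a longer untranslated stretch after the stop codon. That stretch has 1696 bases in Adhfe1-001 and 2317 in Rdh10-001. Neither feature was tested against the values here. Rdh10 has 1 other annotated transcript, the 1959-base Rdh10-002, which is classed as a retained intron and does not contain the start codon of Rdh10-001. The deposited values give a single number for each locus, so they do not separate Adhfe1-001 from Adhfe1-002 or Adhfe1-003, and each value below is for the locus as a whole.

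**Figure D1:**
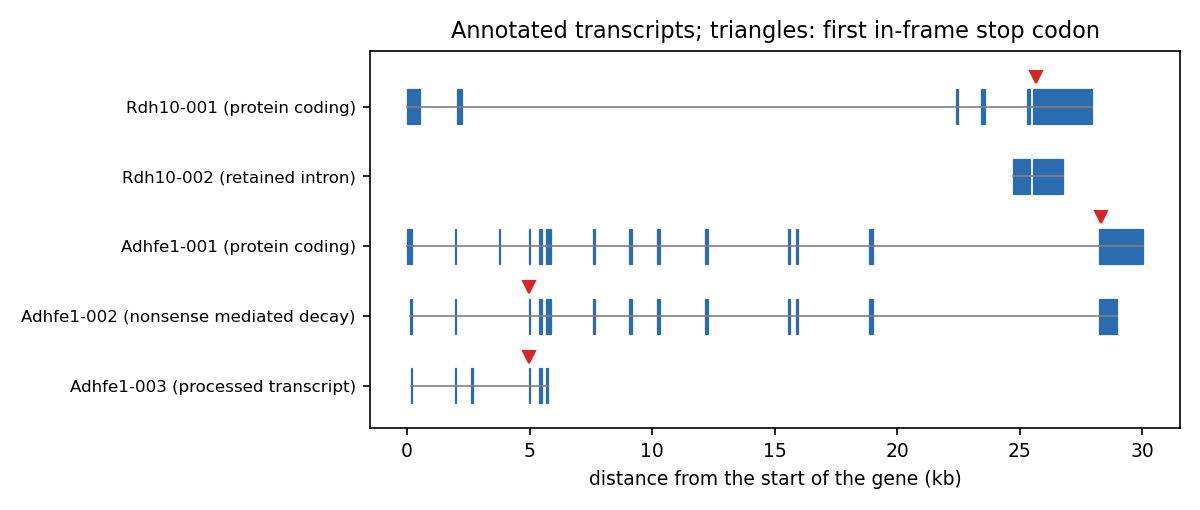
Annotated transcripts of Rdh10 and Adhfe1, with exons as boxes against the distance from the start of the gene in kilobases, and a red triangle over the first in-frame stop codon. The stop codon lies in the last exon of Rdh10-001 and Adhfe1-001, while in Adhfe1-002 and Adhfe1-003 it lies early in the gene with 10 and 2 exon junctions after it.

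Expression was measured as FPKM, the number of fragments scaled by the length of the transcript and by the mapped fragments of the library. Rdh10 FPKM was 6.67, 7.46 and 8.29 in WT testes 1 to 3 and 6.10, 5.95 and 5.31 in Stra8-KO testes 1 to 3. Every Stra8-KO testis was thus below every WT testis, with 0.569 FPKM between the lowest WT and the highest Stra8-KO value. Every Stra8-KO testis was below every WT testis at 30.9% of all loci tested, so this order alone does not set Rdh10 apart. The WT mean was 7.48 ± 0.810 FPKM (SD, n = 3) and the Stra8-KO mean 5.79 ± 0.422 FPKM (SD, n = 3), a ratio of WT to Stra8-KO of 1.29.

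The Rdh10 difference did not pass the test across all loci. On the log2(FPKM + 1) scale it was -0.32 (standard error 0.184, 95% interval -0.75 to 0.11, adjusted p = 0.193 from limma), while 25.6% of the loci tested were called lower at the threshold of 0.05 on the adjusted p. An exact permutation test over the testes gave p = 0.1, the smallest that 3 against 3 allow. The interval includes 0, so this fit did not resolve a difference of the observed size with 3 testes per genotype. Its standard error draws on the spread of other loci as well as on that of Rdh10. Without the trend of the variance with expression the standard error was 0.152 (adjusted p = 0.130 from limma). RNA of whole testes was measured, and a smaller share of cells that use a gene cannot be told apart from less RNA of that gene in each cell. The paper describes loss of germ cells in Stra8-KO testes. None of the 17 marker genes listed for Sertoli, Leydig and germ cells carried a name in these files, so cell composition and the level of Upf2 itself were not analysed here, and the part of composition in either gene's values was not tested.

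The direction of the Rdh10 difference depended on how the libraries were scaled. Loci with at least 1000 FPKM in 1 testis and under 1 FPKM in the other 5 numbered 0 in each WT testis and 16, 29 and 38 in Stra8-KO testes 1 to 3, where they held 26.1%, 34.7% and 38.5% of the summed FPKM. When each testis was scaled to the same total without them, the Rdh10 log2 difference became 0.12 (adjusted p = 0.614 from limma). That scaling also moved the median log2 difference of all loci tested from -0.07 to 0.36, and the share of all calls that were higher in Stra8-KO testes from 42.9% to 73.4%. Relative to the median locus, Rdh10 was lower in the reported values and under each of 6 other choices of scaling or pseudocount, between -0.34 and -0.23. Several of these choices multiply all loci of a testis by the same factor, which moves Rdh10 and the median locus almost alike. The narrow range is therefore no test of those scalings.

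Adhfe1 FPKM was 2.70, 2.20 and 4.99 in WT testes 1 to 3 and 7.14, 15.2 and 5.72 in Stra8-KO testes 1 to 3. The Stra8-KO values all exceeded the WT values, although only 0.727 FPKM separated WT testis 3 from Stra8-KO testis 3. The highest value exceeded the lowest 2.27-fold within WT and 2.65-fold within Stra8-KO. The same order, with the whole Stra8-KO group above the whole WT group, was seen at 25.9% of all loci tested.

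Adhfe1 FPKM rose 2.83-fold between the group means, from a WT mean of 3.30 ± 1.49 (SD, n = 3) to a Stra8-KO mean of 9.34 ± 5.10 (SD, n = 3). The log2 difference of FPKM + 1 was 1.21 (standard error 0.388, 95% interval 0.31 to 2.12, adjusted p = 0.0370 from limma), and 19.3% of the loci tested were called higher in Stra8-KO testes. The exact permutation test over testes gave p = 0.1, again its smallest value. The call was lost when the replicate number entered the fit as a block (adjusted p = 0.0728 from limma) and without the filter on low values (0.0649), and it depended on single testes. It was kept without WT testis 3 or Stra8-KO testis 3, and it was lost without WT testis 1 (adjusted p = 0.0884 from limma), WT testis 2 (0.107), Stra8-KO testis 1 (0.0576) or Stra8-KO testis 2 (0.0943). Over the testes left out in turn, the ratio of group means ran from 1.95 without Stra8-KO testis 2 to 3.81 without WT testis 3. The read trimmer was set separately for each genotype, and for either gene an effect of that setting cannot be told apart from one of the genotype.

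**Figure D2:**
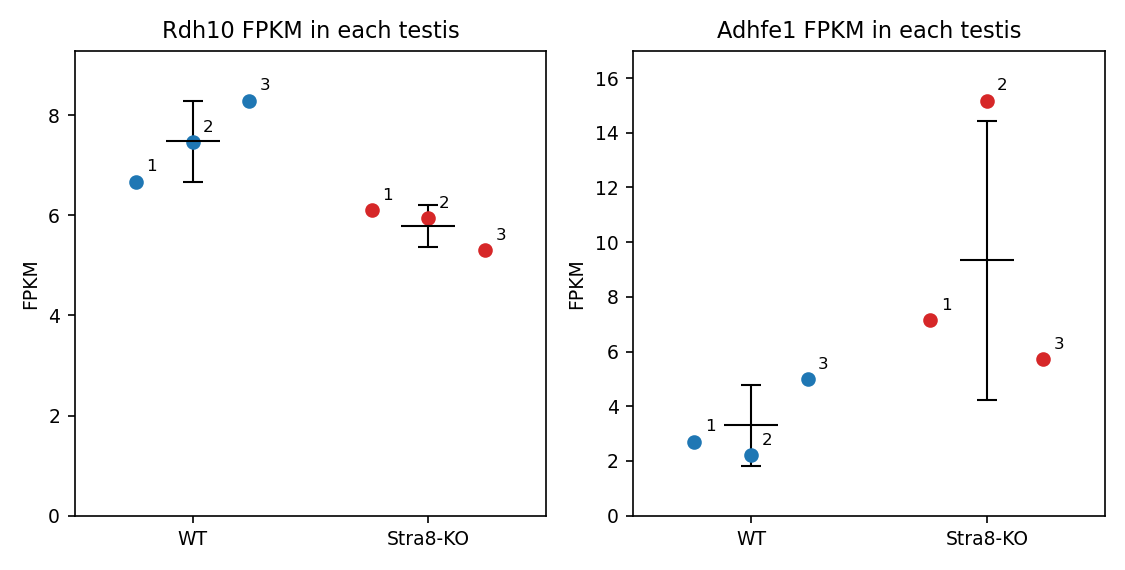
FPKM of Rdh10 (left) and Adhfe1 (right) in each testis, numbered by replicate, with the group mean and SD in black (n = 3 testes per group, linear axes from 0). The groups do not overlap for either gene, and Stra8-KO testis 2 stands far above the others for Adhfe1 at 15.2 FPKM.

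Per length, the genes exchanged order. The ratio of Adhfe1 FPKM to Rdh10 FPKM within a testis was 0.404, 0.295 and 0.602 in WT and 1.17, 2.55 and 1.08 in Stra8-KO testes 1 to 3. Rdh10 was thus the higher of the pair in all 3 WT testes and Adhfe1 in all 3 Stra8-KO testes. The ratio of 2 loci in the same testis does not move when the library is rescaled, so it is free of the scaling that turned the sign of the Rdh10 difference. The mean log2 ratio was -1.27 ± 0.515 (SD, n = 3) for WT and 0.56 ± 0.687 (SD, n = 3) for Stra8-KO, a difference of 1.83 or 3.55-fold (exact permutation test over testes, p = 0.1, the smallest possible). How the difference divides between the genes depends on the scaling. As deposited, the log2 differences of FPKM + 1 were 1.21 for Adhfe1 and -0.32 for Rdh10, and with the same total without the loci high in a single testis they were 1.62 and 0.12.

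The place of each gene in the whole range of expression shifted by unequal amounts. Rdh10 stood between the 42.2 and the 48.3 percentile of tested loci in WT testes and between the 37.2 and the 40.9 percentile in Stra8-KO testes. Adhfe1 stood at percentiles 21.9, 19.4 and 35.7 in WT and at percentiles 44.7, 62.4 and 39.0 in Stra8-KO testes 1 to 3. Of the Stra8-KO testes, testis 1 placed Adhfe1 within the range that Rdh10 held in WT, testis 2 above it and testis 3 below it, near the position of Adhfe1 in WT testis 3.

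Each gene was then set beside all tested loci whose WT mean FPKM lay within 1.5-fold of its own, as a description without a test. For Rdh10 these were 3684 loci between 4.98 and 11.2 FPKM. Their log2 differences had a median of -0.03, quartiles of -0.70 and 0.62, and 5th and 95th percentiles of -1.57 and 1.30. The Rdh10 value lay inside the quartiles, and 39.7% of these loci had a lower one. Of the same loci, 19.4% were called lower and 23.1% higher in Stra8-KO testes.

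Rdh10 varied little between testes of a genotype. The SD of its log2(FPKM + 1) was 0.138 in WT, against a median of 0.280 over loci of similar level, and 19.8% of those loci had a smaller one. In Stra8-KO testes its SD was 0.091 against a median of 0.269, and 9.80% had a smaller one. Limma draws the variance of a locus towards that of loci of similar expression, so a small spread counts only in part. Of the 280 loci of similar level with a log2 difference within 0.1 of that of Rdh10, limma called 0 at an adjusted p under 0.05, and 2 had an unadjusted p under 0.05. The smallest fall that was called among loci of this level was -0.51, which lies outside that window. The 0 of 280 thus goes with the size of the differences and says nothing about the spread of Rdh10.

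Adhfe1 had 3282 loci of similar WT level, between 2.20 and 4.95 FPKM. Their log2 differences had a median of 0.14, quartiles of -0.42 and 0.69, and 5th and 95th percentiles of -1.15 and 1.35. The Adhfe1 value lay between the upper quartile and the 95th percentile, with 256 loci (7.80%) above it. Of these loci, 20.9% were called higher and 8.90% lower. Of the 130 loci within 0.1 of the Adhfe1 log2 difference, 119 (91.5%) were called. The median standard error over all loci of this level was 0.286, and 78.0% had a smaller one than Adhfe1.

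**Figure D3:**
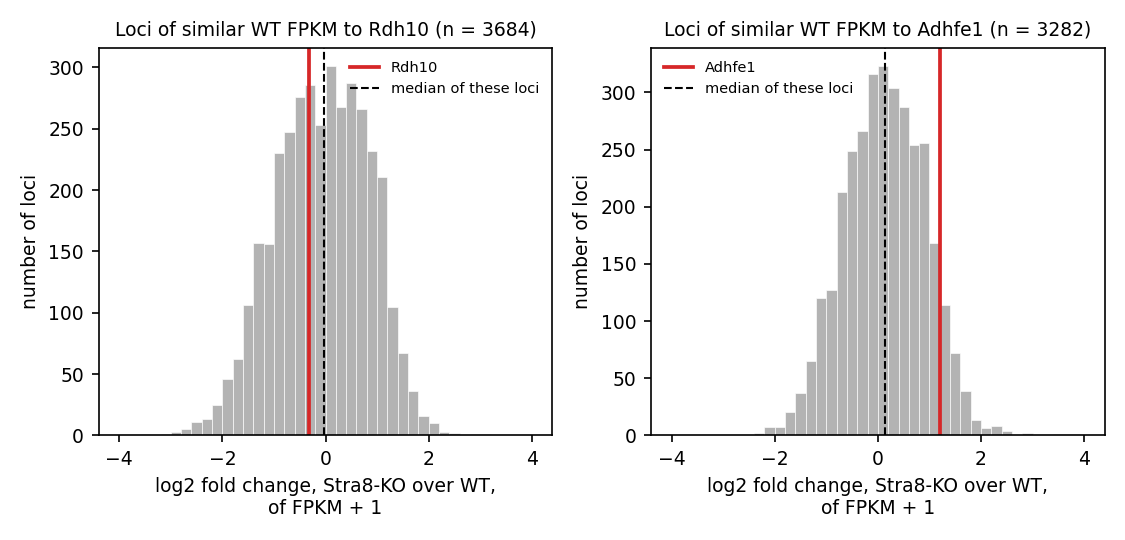
Number of tested loci by log2 fold change of FPKM + 1 (Stra8-KO over WT, bins of 0.2), for loci within 1.5-fold of the WT mean FPKM of Rdh10 (left) and of Adhfe1 (right). The red line marks the gene and the dashed line the median of the loci. Rdh10 at -0.32 lies near the middle, while 7.80% of the loci on the right lie above Adhfe1 at 1.21.

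The spread of Adhfe1 was wide in both genotypes. The SD of log2(FPKM + 1) was 0.473 in WT, where 69.2% of loci of similar level had a smaller one, and 0.667 in Stra8-KO testes, where 88.0% had a smaller one. Stra8-KO testis 2 lay 0.75 above the mean of its group on this scale. At 96.7% of the same loci the signed deviation of that testis was lower. The median of those loci in Stra8-KO testis 2 differed from the group mean by less than 0.01 in size, and testis 2 was the highest of the Stra8-KO testes at 32.9% of them. WT testis 3 lay 0.53 above its group mean, with a lower signed deviation at 91.4% of the same loci, and was the highest WT testis at 32.3% of them. The high Adhfe1 values of Stra8-KO testis 2 and WT testis 3 were thus not accompanied by a shift of the other loci of that level. Rdh10 in the same pair of testes lay 0.04 and 0.14 above its group means.

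The nearest named loci on either side gave values of their own. Rrs1, a gene for ribosome assembly whose annotated end lies 493 bases before the start of Adhfe1, had 11.7, 8.99 and 9.99 FPKM in WT and 11.6, 11.7 and 9.47 FPKM in Stra8-KO testes. Its groups overlapped (log2 difference 0.09, adjusted p = 0.708 from limma). On the other side of Adhfe1, 23228 bases away, 3110035E14Rik had between 2.06 and 2.71 FPKM in the WT testes and between 5.65 and 6.63 FPKM in the Stra8-KO testes. Its groups did not overlap. It rose by 1.05 on the log2 scale (adjusted p = 0.00540 from limma), from a WT level close to that of Adhfe1 and with a much smaller spread.

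Beside Rdh10 the named loci lie farther off. Terf1, which encodes a telomere-binding protein and ends 262303 bases before Rdh10, had a WT mean of 23.5 ± 4.96 FPKM (SD, n = 3) and a Stra8-KO mean of 22.1 ± 6.07 FPKM (SD, n = 3) (log2 difference -0.10, adjusted p = 0.758 from limma). Gm7568, 119857 bases after Rdh10, had 44.4, 47.1 and 35.5 FPKM in WT and 19.0, 23.0 and 21.6 FPKM in Stra8-KO testes. Its groups were far apart, and it fell by 0.96 on the log2 scale (adjusted p = 0.00273 from limma). The ribosomal protein gene Rpl7 is annotated on the minus strand 1111 bases from Rdh10 and carried no name in the files.

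No annotated exon of these neighbours shares bases with Rdh10-001. Exons of the minus-strand gene 2610203C22Rik cover 154 of the 3239 bases of Adhfe1-001 (4.75%), and the pseudogene Gm6161 lies in an intron of Adhfe1. The library kit does not mark strand, so reads from that stretch of Adhfe1 cannot be told apart from reads of 2610203C22Rik, and its part in the Adhfe1 values was not tested. The neighbour 3110035E14Rik also lies wholly within the span of 2610203C22Rik. Exonic bases shared by those genes were not counted, and the part of 2610203C22Rik in the 3110035E14Rik values was not tested.

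Among the 21 other named loci that were tested, likeness was measured as the root mean square difference of log2(FPKM + 1) over the 6 testes, after each locus's own WT mean was subtracted. For Rdh10 the most like were Gm16720 (0.184), the mitochondrial membrane protein gene Tmem70 (0.187) and Gdap1 (0.245), a gene for a mitochondrial outer membrane protein. None of the 3 passed the test, with adjusted p from 0.168 to 0.664 by limma. The measure favours loci with a difference like that of Rdh10, so this partly follows from the choice. Gm16720 and Gdap1 lie near the floor, with WT means of 1.40 and 1.58 FPKM and Stra8-KO means of 1.17 and 0.904 FPKM. At such levels the pseudocount flattens changes, so their likeness to Rdh10 may overstate how alike the genes behave. Tmem70 is higher, with a WT mean of 26.8 FPKM. Over all loci tested, named or not, 1883 (10.1%) were nearer to Rdh10 than Gdap1 was, so the profile is a common one.

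For Adhfe1 the most like were Pcmtd1 (0.389), the serine/threonine kinase gene Sgk3 (0.483) and 3110035E14Rik (0.522). All 3 were called higher in Stra8-KO testes, with log2 differences of 1.36, 0.88 and 1.05. The measure favours loci with a rise like that of Adhfe1, so these calls partly follow from the choice. Their distances from Adhfe1 were larger than those found for Rdh10, and Adhfe1 lay above all 3 in Stra8-KO testis 2, at 1.97 over its WT mean. Over all loci tested, 1258 (6.72%) were nearer to Adhfe1 than 3110035E14Rik was.

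**Figure D4:**
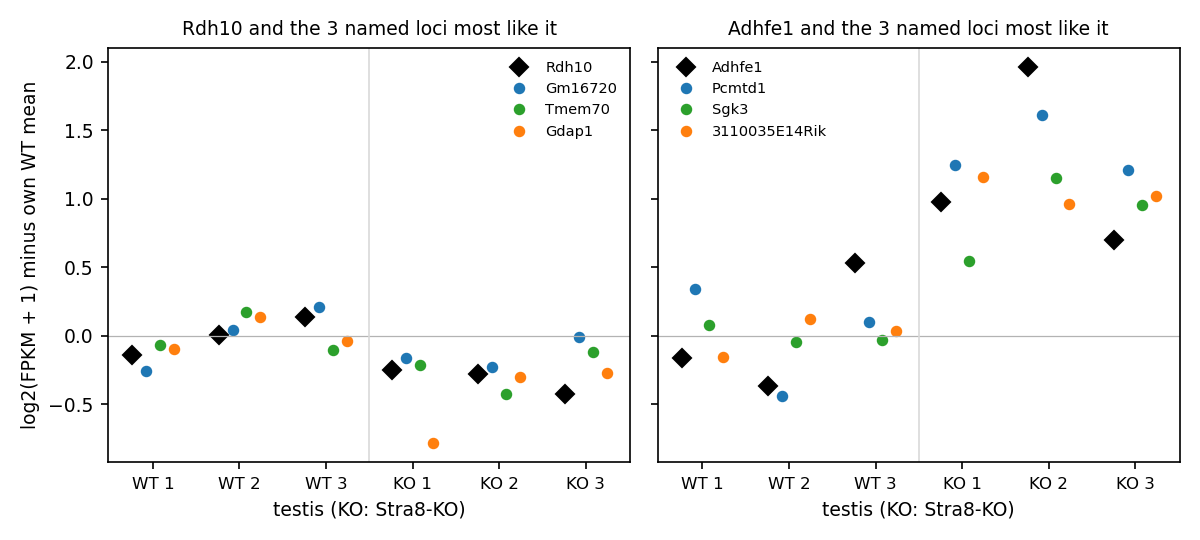
log2(FPKM + 1) minus the locus's own WT mean in each of the 6 testes, for Rdh10 (left) and Adhfe1 (right) as black diamonds and the 3 named loci most like each as coloured points. Rdh10 and its loci all stay within 0.8 of 0, and Adhfe1 reaches 1.97 in Stra8-KO testis 2.

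The pathways of both genes could be followed no further by name. Of 34 genes listed for retinoid metabolism and signalling, 1 carried a name in these files, Rdh10 itself. Of 10 genes listed for hydroxyacid metabolism, 1 did, Adhfe1 itself. Among the 22 named loci that were tested, 6 were called higher, Adhfe1 among them, and 2 lower, against 19.3% higher and 25.6% lower over all 18726 loci tested. Their values had a median log2 difference of 0.10 against -0.07 over all loci tested.

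Both genes were refitted under 16 other settings. Adhfe1 was higher in Stra8-KO testes in 16 of 16 and past the threshold in 10. Rdh10 was lower in 15 of 16 and past the threshold in 0, with adjusted p from 0.130 to 0.614 by limma. The Adhfe1 difference relative to the median of all loci tested lay between 1.18 and 1.52 over the same 7 choices of scaling or pseudocount as for Rdh10. Here too a factor shared by all loci moves the gene and the median almost alike, so the range does not test such scalings.

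**Figure D5:**
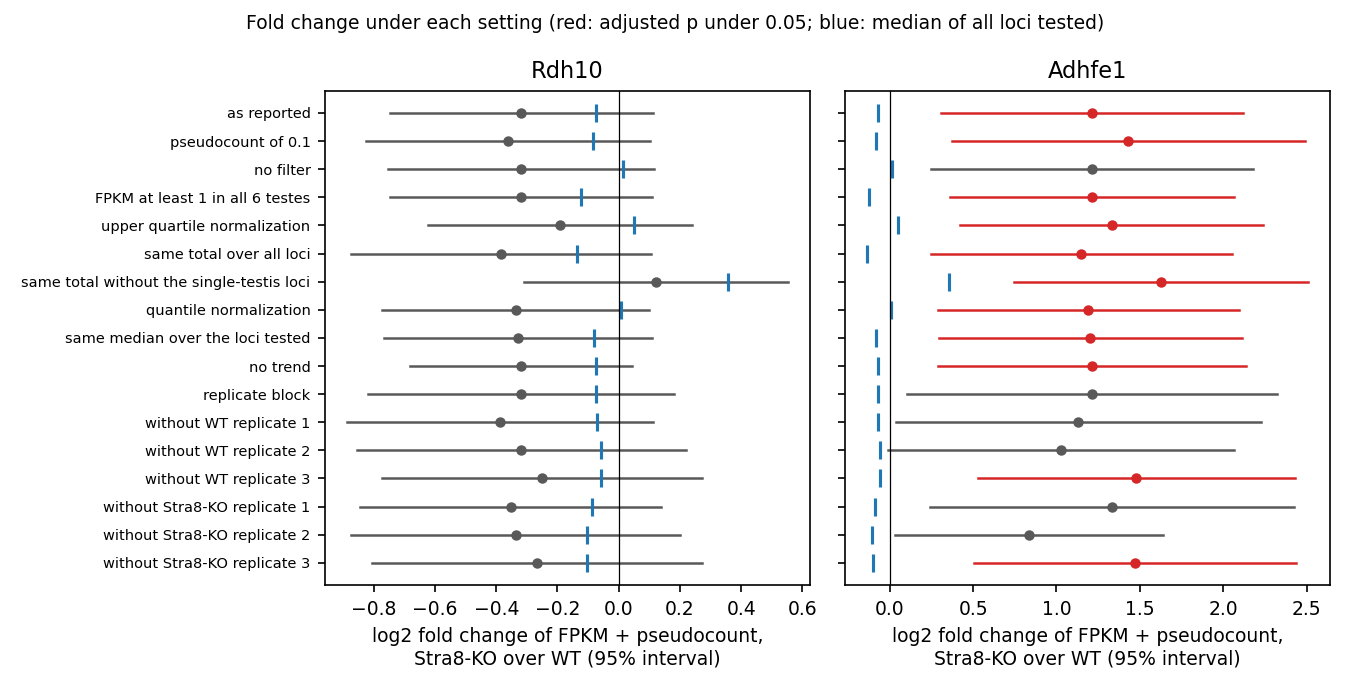
log2 fold change (Stra8-KO over WT) of Rdh10 and Adhfe1 with its 95% interval, as reported and under each of 16 other settings; red marks an adjusted p under 0.05 and the blue ticks give the median of all loci tested. No Rdh10 point is red and 1 of them lies above 0, while the Adhfe1 points all lie above 0.8.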

How the data were processed

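The values analysed are FPKM of 6 whole testes, 3 from each genotype. The authors trimmed WT and Stra8-KO reads with different settings, mapped them to NCBIM37 (mm9) with TopHat2, assembled transcripts with Cufflinks, with corrections for fragment bias and multi-mapped reads, and deposited FPKM (fragments scaled by transcript length and mapped fragments) for 39667 loci. Counts were not analysed here, so error is given as the SD over testes. The paper calls the testes biological triplicates. Testes are numbered by their labels. The column headers count from 0, and for WT testis 3 the header and the name of the file carry different numbers, so its number rests on the label alone. Purified spermatocytes and round spermatids were not analysed here.

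log2(FPKM + 1) was computed from the deposited values. The 18726 loci that reached 1 FPKM in 3 or more testes entered the test, limma 3.58.1 under R 4.3.3 (trend of the variance with expression, Benjamini-Hochberg adjustment over all loci tested, threshold 0.05). The pseudocount understates the changes of low loci. Single values were compared by two-sided exact permutation tests over testes. Limma was checked on simulated data. The named genes are Rdh10, Adhfe1, the nearest named locus on each side of each, and for each the 3 tested named loci with the most similar profile over the 6 testes. Names were taken by locus number up to 56. The WT means were compared with the WT values in the table that gave the names, for loci with at least 1 FPKM in either. Of 25 named loci, 22 lay within 2-fold, against 45 of 358 later loci. These totals do not say on which side Rdh10 and Adhfe1 fell. Transcripts, stop codons and sequences were read from GENCODE vM1 and the NCBIM37 genome by coordinates. The 2 genes, the gene lists and the tests were chosen with earlier results of these data known. Alternatives were another pseudocount, other filters, other scalings, no trend, the replicate number as a block and each testis left out; scaling to the same median was added after seeing the data. Other steps used matplotlib 3.10.9, scipy 1.17.1, pandas 2.3.3 and numpy 2.4.6 under Python 3.11.15.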

Additional observations from a re-analysis of the deposited data

How the results depend on the processing

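The Rdh10 log2 difference changed sign under 1 alternative, 0.12 (adjusted p = 0.614 from limma) with each testis scaled to the same total without the loci high in a single testis. The same scaling moved the loci called higher to 6585 and those called lower to 2388 (from 3607 and 4796), and the share of calls that were higher from 42.9% to 73.4%. Other scalings gave shares from 36.8% to 52.1%. Calling only log2 differences of at least 1 in size left 1865 higher and 2669 lower loci. Adhfe1 kept a log2 difference of 1.21 without the filter on low values, where more loci were tested, but its adjusted p was then 0.0649 from limma. With the replicate number as a block, Adhfe1 again had a log2 difference of 1.21 and an adjusted p of 0.0728, Rdh10 -0.32 and 0.233, and 3530 loci were called higher and 4898 lower. The cause of the lost Adhfe1 call was not tested. The deviations of testes with the same number correlated with r from -0.02 to 0.13 over loci (mean 0.06). For testes of different numbers r ran from -0.13 to 0.07 (mean -0.03). These ranges overlap and do not settle whether the numbers pair the testes, and the main fit did not pair them. With each testis left out in turn, the log2 difference ranged from 0.84 to 1.48 for Adhfe1 and from -0.39 to -0.25 for Rdh10, the loci called higher numbered 2404 (without Stra8-KO testis 3) to 3302, and those called lower 3706 to 4385. The other settings changed neither gene's side of the threshold. Reads per locus were not analysed, and 3 testes per genotype limit what could be called.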
